A study of Mus musculus with 2 samples.

Results

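The genes described here encode the chaperones of the cytosol and of the mitochondrion, the proteins that fold new polypeptides and refold or hold damaged ones outside the secretory pathway. The list named 42 genes, and 41 of them were found by symbol among the 27998 genes of the deposited tables. Cct6a was not analysed here. The list also holds Hsf1 and Hsf2, which encode transcription factors of the heat shock response. Its members were chosen by function with the UMI sums per cell class of these same libraries already known, so every difference between the libraries below is a description and carries no test.

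The libraries came from lungs of C57Bl6 mice that all received bleomycin, which injures the lung and leads to fibrosis, on day 1. One group was given vehicle. The other was given navitoclax (ABT-263), an inhibitor of BCL-2 family proteins that restrain apoptosis, from day 15 to day 20. Lungs were taken 21 days after bleomycin. Epithelial and stromal cells were sorted from digested lungs and mixed in equal parts before capture on the Chromium platform, which tags the end of each transcript and counts unique molecular identifiers (UMIs). Each group is 1 library, so there is no replicate. The labels state neither the age or sex of the mice nor how many were pooled into a library.

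After filtering, the vehicle library held 7174 cells and the navitoclax library 6240, from 97958947 and 98517048 UMIs in all barcodes. Cells were placed in 10 classes by marker gates that contain no chaperone gene. Each class had between 1 and 5 of its own markers among its 10 leading genes. Because the same markers define the classes, this does not check class identity. The most numerous classes were type II alveolar-like (AT2-like) cells, with 2666 vehicle and 2351 navitoclax cells, and alveolar fibroblast-like cells, with 2615 and 2004. The smallest was mesothelial-like, with 61 and 33 cells. Of transitional-like cells 35.1% lay near a gate boundary, against 2.39% of AT2-like cells. The libraries shared 20 cell barcodes, and for 4 of these the class was also the same. Alveolar, adventitial, peribronchial and fibrotic fibroblast-like cells and those of no subclass were also pooled as fibroblast-like cells, 3483 and 2895.

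A gene's level is its UMIs summed over the cells of a class in a library, per 1000000 UMIs of that sum (CPM). A fold is the ratio of the 2 CPM values, navitoclax over vehicle. Intervals in parentheses are exact 95% intervals that cover counting error only, not differences between mice or preparations. A gene with at least 100 UMIs in the class over both libraries was called measured. It was counted as higher or lower when log2((navitoclax CPM + 5)/(vehicle CPM + 5)), the log2 ratio below, reached the value for a level 25% higher, or its negative, which is a level 20% lower. This is called the 25% limit below.

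Chaperones work as a network. Hsp70 proteins bind exposed hydrophobic stretches in a cycle of ATP hydrolysis that J-domain proteins start and nucleotide exchange factors reset, Hsp90 finishes the folding of kinases and hormone receptors with its co-chaperones, small heat shock proteins hold unfolded proteins until they can be refolded, and the ring-shaped TRiC complex folds actin and tubulin. When unfolded protein builds up, the transcription factor HSF1 is released from chaperones, binds heat shock elements made of inverted nGAAn units and drives the inducible members, of which Hspa1a and Hspa1b are the classic targets. Most other members are made constitutively.

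Promoters of 6 members are shown with their heat shock element letters. The windows are RefSeq, build GRCm38.p6, 250 bases before to 50 after the annotated start, written in the sense of the gene. Capitals mark the pair of inverted units GAANNTTC or TTCNNGAA, searched on both strands, since each is its own reverse complement. Runs of capitals hold matches that overlap. Hspa1a and Hspa1b are shown as the neighbouring gene copies with the greatest ratios, Hsph1 and Hspb1 as members higher in most classes in which they were measured, Hspe1 for its shared promoter, and Chordc1 as the window with the most matches.
Hspa1a (chr17:34972107-34972406, minus strand): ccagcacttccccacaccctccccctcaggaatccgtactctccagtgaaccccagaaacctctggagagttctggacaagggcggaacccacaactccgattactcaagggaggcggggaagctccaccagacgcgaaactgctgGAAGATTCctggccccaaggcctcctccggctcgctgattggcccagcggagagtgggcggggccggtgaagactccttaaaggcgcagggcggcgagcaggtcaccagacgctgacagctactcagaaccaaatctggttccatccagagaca
Hspa1b (chr17:34959189-34959488, minus strand): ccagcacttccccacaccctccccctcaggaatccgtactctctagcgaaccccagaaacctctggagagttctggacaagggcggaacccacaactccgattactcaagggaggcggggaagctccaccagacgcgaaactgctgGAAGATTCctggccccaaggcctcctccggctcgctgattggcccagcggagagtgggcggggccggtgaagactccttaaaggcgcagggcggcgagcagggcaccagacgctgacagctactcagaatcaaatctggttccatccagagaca
Hsph1 (chr5:149636266-149636565, minus strand): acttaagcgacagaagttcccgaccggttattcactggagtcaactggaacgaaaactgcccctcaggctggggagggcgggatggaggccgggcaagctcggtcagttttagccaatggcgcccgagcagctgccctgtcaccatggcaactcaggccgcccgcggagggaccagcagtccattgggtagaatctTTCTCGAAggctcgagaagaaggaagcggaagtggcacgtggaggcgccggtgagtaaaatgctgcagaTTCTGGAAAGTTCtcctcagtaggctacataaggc
Hspb1 (chr5:135887669-135887968, plus strand): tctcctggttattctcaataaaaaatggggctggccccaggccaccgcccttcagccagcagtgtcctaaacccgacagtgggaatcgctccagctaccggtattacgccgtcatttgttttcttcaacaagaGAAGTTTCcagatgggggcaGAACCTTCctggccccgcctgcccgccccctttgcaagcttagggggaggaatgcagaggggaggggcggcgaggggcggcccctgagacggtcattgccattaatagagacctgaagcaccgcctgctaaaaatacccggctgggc
Hspe1 (chr1:55087898-55088197, plus strand): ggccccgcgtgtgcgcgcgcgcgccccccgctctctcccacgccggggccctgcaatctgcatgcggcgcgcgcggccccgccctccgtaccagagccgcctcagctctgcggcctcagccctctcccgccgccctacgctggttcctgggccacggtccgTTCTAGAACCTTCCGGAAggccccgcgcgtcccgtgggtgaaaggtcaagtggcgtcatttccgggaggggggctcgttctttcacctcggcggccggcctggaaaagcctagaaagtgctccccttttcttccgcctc
Chordc1 (chr9:18292017-18292316, plus strand): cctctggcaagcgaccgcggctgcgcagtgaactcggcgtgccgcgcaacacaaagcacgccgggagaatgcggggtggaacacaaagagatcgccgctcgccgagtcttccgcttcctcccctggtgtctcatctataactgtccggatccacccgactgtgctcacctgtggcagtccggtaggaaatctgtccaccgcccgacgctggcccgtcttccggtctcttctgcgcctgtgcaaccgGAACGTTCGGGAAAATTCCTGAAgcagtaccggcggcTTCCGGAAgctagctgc

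The Hspa1a and Hspa1b windows differed at 4 of 300 positions, C44T, T47C, T249G and C276T, counted from the 5′ end of the window with the base of Hspa1a given first. Each held 1 match, starting 104 bases before the transcript start. The transcripts themselves were alike over most of their length, with 94.8% of 2467 bases of Hspa1a the same in Hspa1b in a global alignment of the GENCODE transcripts, all but the last 500. Over those last 500 bases, the part near which an end-tagging kit reads, 36.6% were the same. Reads from further upstream could still be divided between the copies in a way that cannot be checked here.

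Of 41 members, 33 had a RefSeq window, and 17 of these (51.5%) held GAANNTTC or TTCNNGAA in at least 1 window, against 17.0% of all 27025 genes and 15.1% of all 32851 windows. Windows with 3 units in a row (GAA, any 2 bases, TTC, any 2 bases, GAA, or the same beginning and ending with TTC) were found for 5 members, Hsph1, Dnajb6, Chordc1, Hspd1 and Hspe1 (15.2%), against 0.662% of all genes. Hspa8, St13, Hsp90aa1, Hsp90ab1, Cryab, Hspa9, Cct4 and Hsf1 had no window. Elements with other letters or outside the windows were not searched. Among members with a window, exact pairs did not always go with a higher ratio. The Chordc1 window, with 5 pairs, belonged to a gene past the 25% limit in no class, and Dnajb1, whose windows held no pair, was higher in all 8 classes in which it was measured. Hspd1 and Hspe1 are transcribed in opposite directions from 1 stretch of chromosome 1, and their windows hold the same run of capitals on opposite strands.

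Hspa1a and Hspa1b, the inducible cytosolic Hsp70 genes on chromosome 17, had the greatest ratios of the list. Hspa1a stood at 16.8 CPM in vehicle and 507 CPM in navitoclax AT2-like cells, a 30.2-fold (28.1 to 32.4) difference. Levels in alveolar fibroblast-like cells were 57.4 and 758 CPM, 13.2-fold (12.4 to 14.0). In no class did the intervals of the libraries overlap.

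Among the other epithelial classes, Hspa1a was at 56.1 and 795 CPM in transitional-like, at 21.6 and 562 CPM in alveolar type I-like (AT1-like) and at 4.99 and 456 CPM in club-like cells. Ciliated-like cells had 12.5 and 128 CPM, the lowest level of any navitoclax class. Its fold in club-like cells, 91.3 (58.2 to 152), rests on 19 vehicle UMIs. In the other stromal classes and in mesothelial-like cells vehicle levels were higher and folds smaller. Hspa1a was at 171 and 922 CPM in adventitial, at 163 and 967 CPM in peribronchial fibroblast-like, at 172 and 929 CPM in smooth muscle or pericyte-like and at 87.2 and 525 CPM in mesothelial-like cells, with folds between 5.39 and 6.02. The classes were thus less spread out in the navitoclax than in the vehicle library, apart from ciliated-like cells.

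Hspa1b was lower than Hspa1a in every navitoclax class and followed the same order of libraries. Its levels were 9.44 and 312 CPM in AT2-like cells, 33.1-fold (30.1 to 36.4), and 10.46 and 343 CPM in alveolar fibroblast-like cells, 32.8-fold (28.5 to 37.8). The adventitial fibroblast-like class had the highest level in both libraries, 104 and 596 CPM, and the smallest fold, 5.71 (5.13 to 6.36). Ordered by the log2 ratio among all measured genes, Hspa1a and Hspa1b held the top 2 places in AT2-like cells and in each of the 10 classes fell within the top 5.

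**Figure D1:**
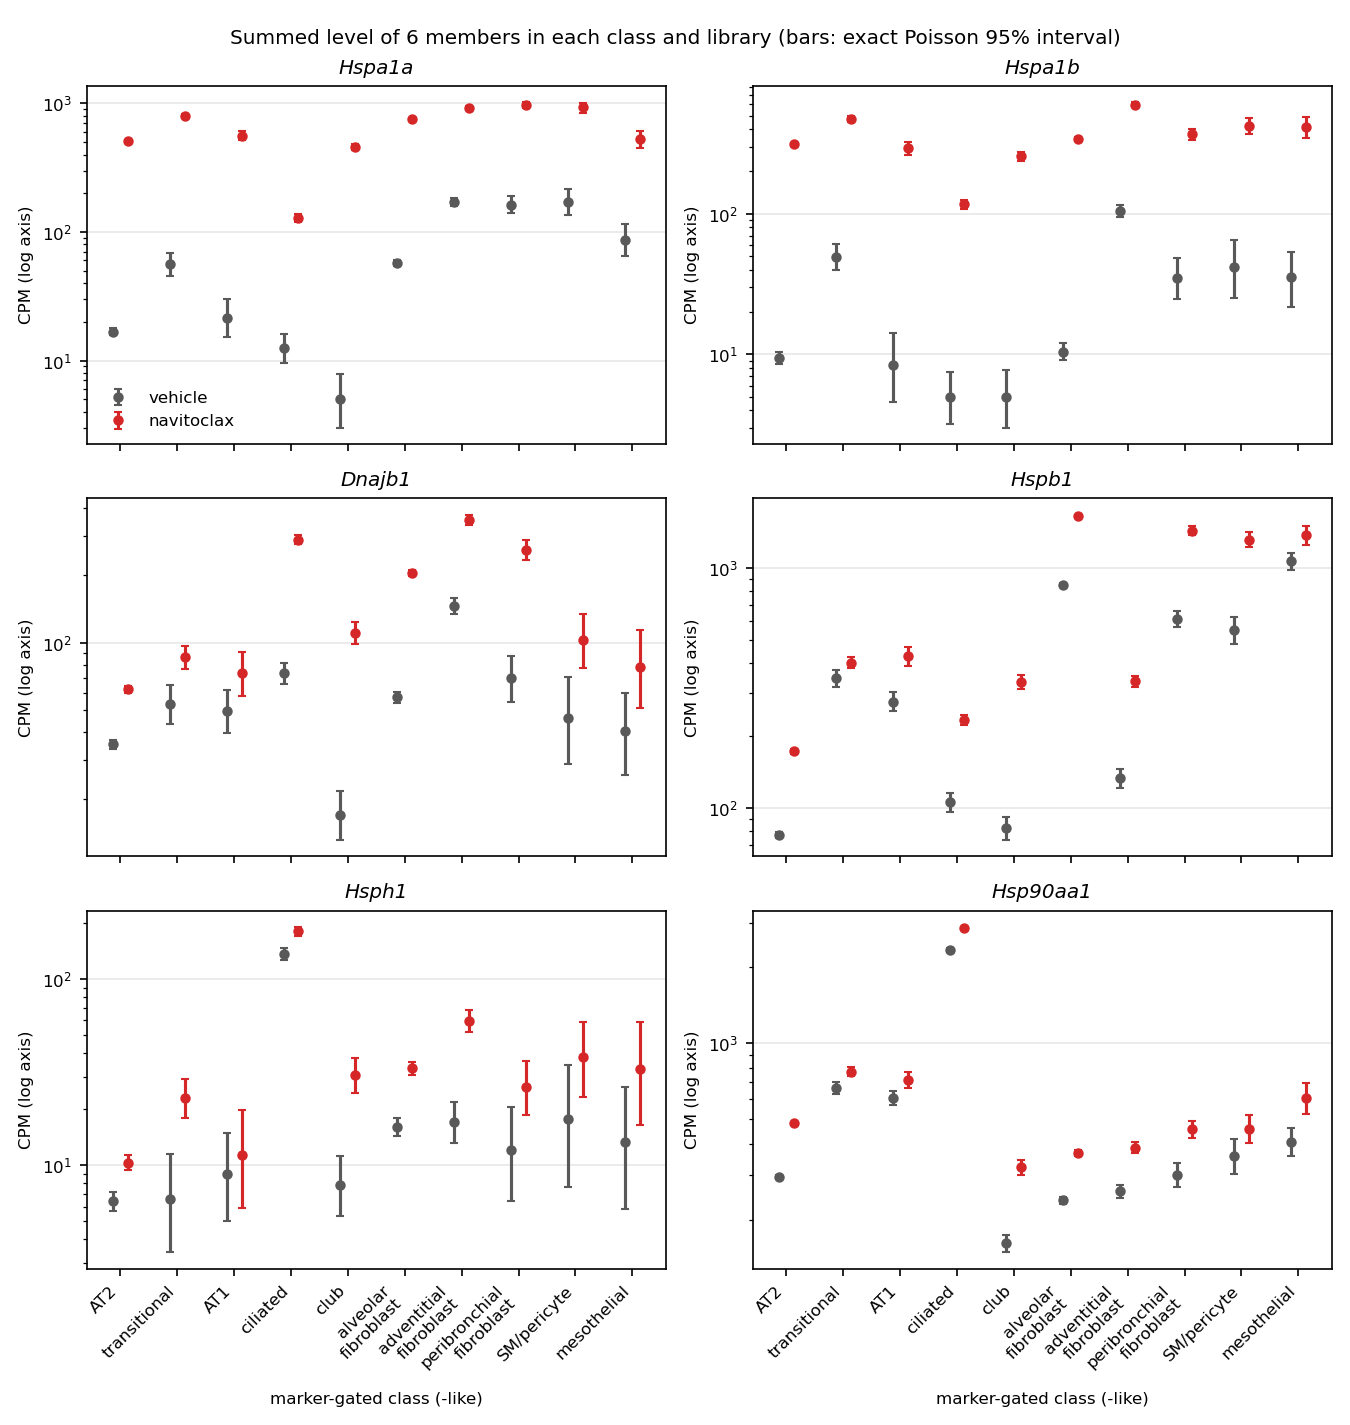
CPM (log axis) of Hspa1a, Hspa1b, Dnajb1, Hspb1, Hsph1 and Hsp90aa1 in each marker-gated class of the vehicle (grey) and navitoclax (red) library, with bars for the exact Poisson 95% interval of the count. The navitoclax point lies above the vehicle point in every panel and class. Hspa1a spans 4.99 to 172 CPM over vehicle classes and 128 to 967 CPM over navitoclax classes.

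To compare cells of unlike depth, each was thinned to 2000 UMIs. Among AT2-like cells, 3.11% (2.48 to 3.84) then had an Hspa1a UMI in vehicle, and 47.5% (45.5 to 49.6) had one in navitoclax. The shares in pooled fibroblast-like cells were 11.4% (10.3 to 12.5) and 62.5% (60.6 to 64.3). Without thinning the shares were 16.7% and 76.9% in AT2-like cells and 26.5% and 77.9% in fibroblast-like cells. Shallower cells were left out, 26 and 17 of the AT2-like and 259 and 236 of the fibroblast-like cells. The share was 2.65% and 13.7% in ciliated-like, 1 of 91 and 24 of 63 cells in club-like, and 12.9% and 66.4% in transitional-like cells.

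Before thinning, the median navitoclax AT2-like cell had 323 CPM of Hspa1a and the median vehicle cell 0. The 10% of cells with the most Hspa1a UMIs held 78.4% of that gene's UMIs in vehicle and 37.9% in navitoclax AT2-like cells, and 70.8% and 36.3% in fibroblast-like cells. In ciliated-like cells the top 10% still held 69.0% in the navitoclax library, where the median cell was at 0. A low count alone raises such a share. Vehicle AT2-like cells held 820 Hspa1a UMIs in all and navitoclax ones 24546, so these shares do not compare how evenly cells of the libraries express the gene. At 2000 UMIs per cell, 140 of 2334 navitoclax AT2-like and 261 of 2659 navitoclax fibroblast-like cells carried 6 or more UMIs of Hspa1a and Hspa1b together, against 0 of 2640 vehicle AT2-like cells, with an upper limit of 0.140%, and 3 of 3224 vehicle fibroblast-like cells.

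**Figure D2:**
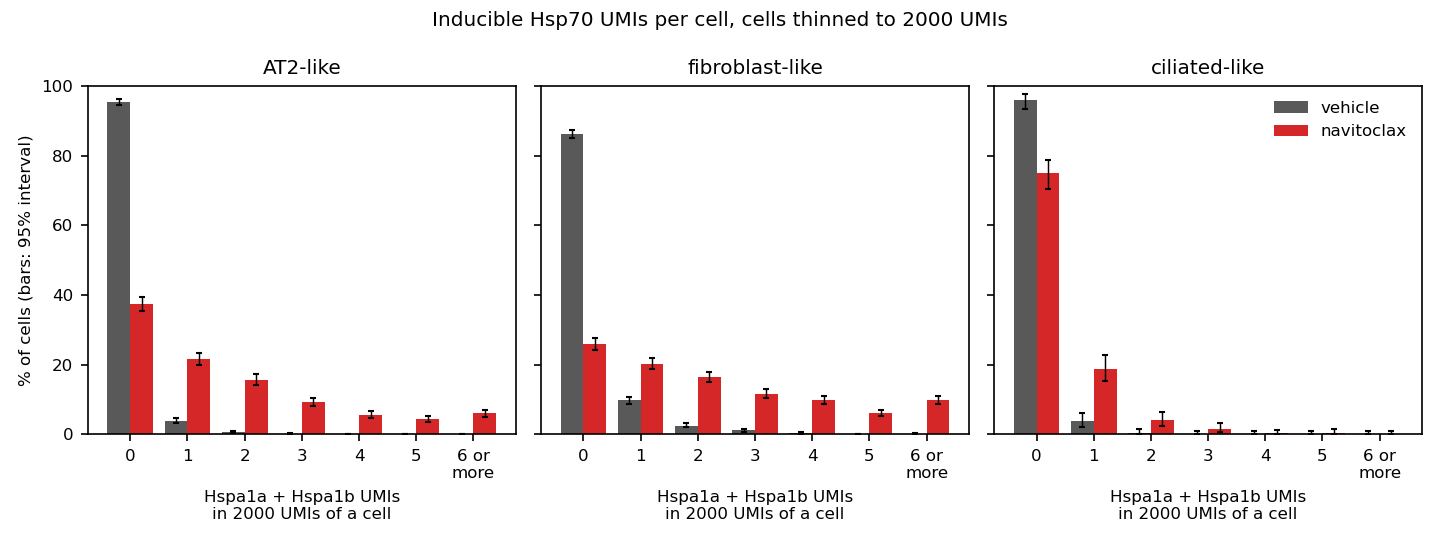
Share of cells (%) by their summed Hspa1a and Hspa1b UMIs after thinning to 2000 UMIs, in AT2-like, pooled fibroblast-like and ciliated-like cells of the vehicle (grey) and navitoclax (red) library, with exact 95% intervals. Cells with 0 UMIs made up 95.5% of vehicle and 37.4% of navitoclax AT2-like cells, and 96.0% and 74.9% of ciliated-like cells.

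Free RNA puts UMIs of abundant genes into cells that do not make them. Sftpc, the surfactant gene of type II cells, was at 233504 CPM in navitoclax AT2-like and still at 2438 CPM in navitoclax alveolar fibroblast-like cells, and 98.1% of the latter had an Sftpc UMI at 2000 UMIs per cell. Per 1000 Sftpc UMIs there were 2.17 Hspa1a UMIs in the AT2-like but 311 in the alveolar fibroblast-like cells of that library. For a fibroblast gene in AT2-like cells, the share of cells with a Col1a2 UMI was 1.17% and 1.63% at the same thinning. For Scgb1a1, an abundant club cell gene, it was 63.9% and 55.7% of AT2-like cells, above the Hspa1a shares of both libraries. Ciliated-like cells had more Sftpc in the navitoclax library, 16423 against 3284 CPM, and 7.78 Hspa1a UMIs per 1000 Sftpc UMIs there. The share of ciliated-like cells with an Sftpc UMI at 2000 UMIs was 96.0% in vehicle and 95.2% in navitoclax. In the 2 ciliated-like clusters followed below, navitoclax Hspa1a ran from 64.8 to 101 CPM, against 128 CPM for the class. The part of free RNA in the Hspa1a values of any class was not tested.

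Across the whole list, 7 of 41 measured members were higher and 0 were lower in navitoclax AT2-like cells, beside 0.737% of all 11121 measured genes higher and 0.522% lower. These shares of all genes, the background, are given for reference only, because the list was chosen with this contrast known. The 7 were Hspa1a, Hspa1b, Hsph1, Dnajb1, Dnaja1, Hsp90aa1 and Hspb1. Of the 7, Dnaja1 at 1.28-fold lay nearest to the limit, and of the members not counted Cryab at 1.199-fold lay nearest. Among genes with a mean of at least 5 CPM the background was 0.714% and 0.588%. The median log2 ratio over members was 0.001, beside −0.01 over all measured genes. Summed over all members the level was 4261 CPM in vehicle and 5542 CPM in navitoclax AT2-like cells. Pooled fibroblast-like cells had 9 of 41 members higher and none lower, beside 1.97% and 1.22% of 11453 genes, or 2.07% and 1.33% of those with a mean of at least 5 CPM. They were the same 7 genes with Hspa8 and Hsp90ab1, and the median was 0.12, beside 0.00 over all genes.

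In the single fibroblast classes the counts were 10 of 41 higher and none lower in alveolar (background 2.18% and 1.46%, or 2.18% and 1.5% from 5 CPM), 13 of 40 and none in adventitial (6.46% and 6.5%) and 10 of 33 and 3 in peribronchial fibroblast-like cells (10.1% and 8.39%). Club-like cells had 14 of 35 members higher and none lower, but there 21.4% of all genes were higher and 2.33% lower. All genes of the club-like class were shifted by a median log2 ratio of 0.14, so ratios near that size in this class do not stand apart from the rest. Ciliated-like cells had 8 of 41 higher and 1 lower (7.79% and 1.58%).

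In the thinly counted classes the background was wide. Transitional-like cells had 5 of 38 members higher and 4 lower (8.4% and 9.07% of all genes) and AT1-like cells 5 of 33 and 3 (6.95% and 19.6%). Smooth muscle or pericyte-like cells had 8 of 26 and 2 (14.6% and 12.2%) and mesothelial-like cells 4 of 19 and 3 (11.3% and 12%).

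**Figure D3:**
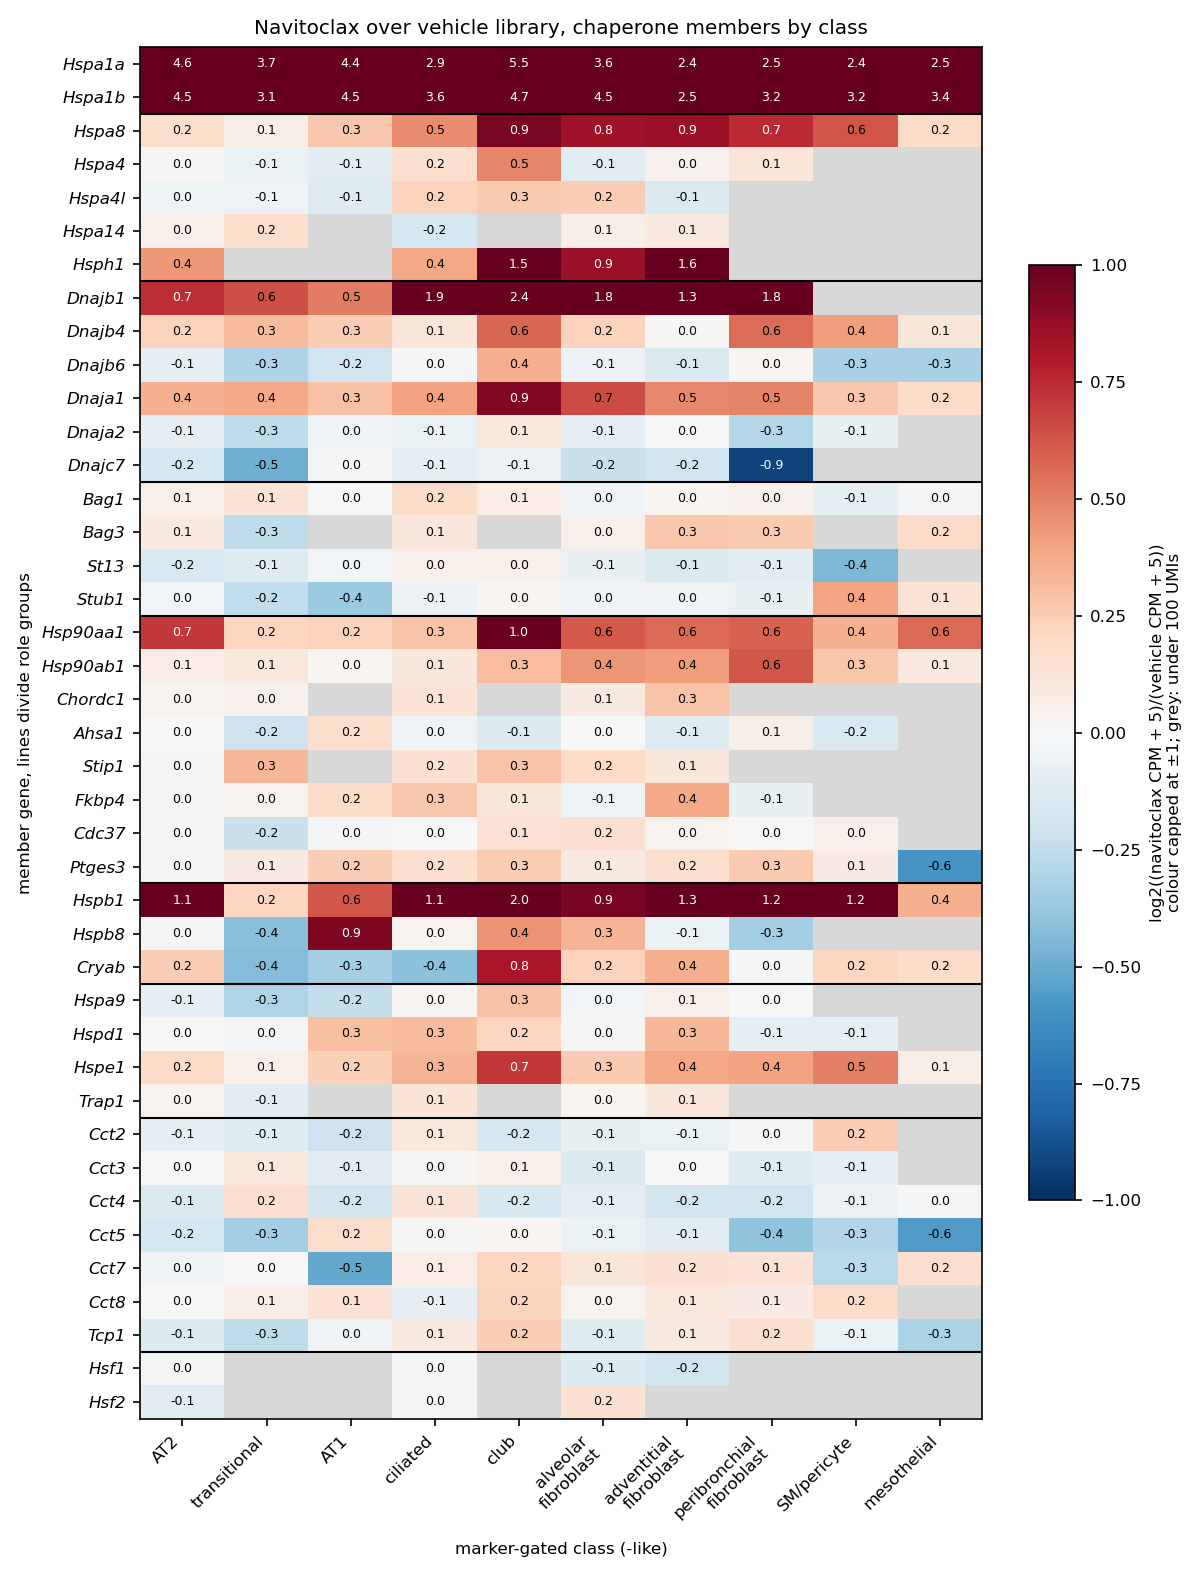
Log2 ratio, navitoclax over vehicle, of 41 members (rows, in role groups) in 10 marker-gated classes (columns), with colour capped at ±1 and grey where a gene had under 100 UMIs. The lowest value of Hspa1a is 2.40, in adventitial fibroblast-like cells. Hspa8, Hsph1, Dnajb1, Dnaja1, Hsp90aa1 and Hspb1 are above 0 wherever measured, while the TRiC rows near the bottom hold no value past the 25% limit on the higher side.

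Members were next followed over the classes. In all, 12 of 41 had a log2 ratio above 0 in every class in which they were measured, beside 10.1% of 8913 genes measured in at least 3 classes, as every member was. The 25% limit was passed in no class and neither direction by 17 of 41, beside 56.2% of those genes. There were 100 values past the limit over the 10 classes, of which 92 kept their direction and 67 stayed past the limit under all 9 other settings tried on single values. The share of all genes past the limit in each class is given above. Such counts over settings are not given for all genes, so 92 and 67 describe the members alone. Among the remaining Hsp70 and Hsp110 genes, Hspa8 encodes the constitutive cytosolic Hsp70 and was one of the most abundant members. It was at 774 and 877 CPM in AT2-like cells, 1.13-fold (1.12 to 1.15), and at 505 and 919 CPM in fibroblast-like cells, 1.82-fold (1.78 to 1.86). It was higher in 6 of 10 classes, among them ciliated-like and club-like. In AT2-like, transitional-like, AT1-like and mesothelial-like cells, with vehicle levels from 774 to 1249 CPM, it was above 0 but within the limit.

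Hsph1 encodes an Hsp110, a nucleotide exchange factor of Hsp70. It was higher in all 5 classes in which it was measured, with 7.88 and 30.7 CPM in club-like cells, 3.898-fold (2.55 to 6.12), 17.1 and 59.9 CPM in adventitial fibroblast-like cells, 3.49-fold (2.64 to 4.67), and 137 and 180 CPM in ciliated-like cells, 1.32-fold. Hspa4, an Hsp110 of the same family, stood at 51.8 and 52.2 CPM in AT2-like cells. Hspa4, Hspa4l and Hspa14 gave 1 higher value among 20, that of Hspa4 in club-like cells, which had the opposite direction when cells were thinned, and 0 lower values.

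Of the J-domain genes, Dnajb1, the partner that starts the Hsp70 cycle on misfolded protein, was higher in all 8 classes in which it was measured. It was at 35.2 and 62.2 CPM in AT2-like cells, 1.77-fold (1.67 to 1.88), at 57.1 and 206 CPM in alveolar fibroblast-like cells, 3.598-fold (3.36 to 3.85), and at 73.0 and 289 CPM in ciliated-like cells, 3.96-fold (3.53 to 4.45). Ciliated-like cells therefore had the smallest navitoclax level of Hspa1a and a Dnajb1 level second to that of adventitial fibroblast-like cells, 354 CPM. Dnaja1, the farnesylated partner of Hsp70, was higher in 7 of 10 classes and above 0 in the others, with 222 and 285 CPM in AT2-like cells, 1.28-fold. Dnajb4 was higher in 3 of 10 classes and above 0 in all 10.

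Not every J-domain gene had a higher value. Dnajc7, which carries TPR repeats that bind Hsp70 and Hsp90, was below 0 in all 8 classes in which it was measured, at 41.2 and 35.9 CPM in AT2-like cells and at 73.1 and 36.1 CPM in peribronchial fibroblast-like cells, where its fold was 0.495 (0.342 to 0.711). It was counted lower there and in transitional-like cells. In thinned cells the log2 ratio was −0.04 in transitional-like, 0.16 in AT2-like and 0.47 in AT1-like cells. In ciliated-like cells it was 0.17 among cells with at most 5% mitochondrial UMIs. Dnaja2 was higher in no class. Dnajb6, a suppressor of aggregation, was at 1.31-fold (1.06 to 1.63) in club-like and at 0.794-fold (0.580 to 1.09) in smooth muscle or pericyte-like cells, both of which had the opposite direction in thinned cells. In mesothelial-like cells it was at 0.791-fold (0.537 to 1.15), with a log2 ratio of −0.33 from all UMIs and −0.77 in thinned cells.

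The other Hsp70 partners were near 0. Bag1 and Bag3, exchange factors that hand clients to the proteasome and to autophagy, were past the limit in no class, with Bag3, a known HSF1 target, at 32.6 and 35.2 CPM in AT2-like cells. St13, which steadies the ADP-bound form of Hsp70, was past the limit in smooth muscle or pericyte-like cells alone, at 0.726-fold (0.519 to 1.01). Stub1, a ubiquitin ligase that marks Hsp70 clients, was counted higher in that class and lower in AT1-like cells, but in AT1-like cells it had the opposite direction when cells were thinned.

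Among Hsp90 genes, Hsp90aa1, the inducible cytosolic form, was higher in 7 of 10 classes and above 0 in the others. It was at 295 and 484 CPM in AT2-like cells, 1.64-fold (1.61 to 1.67), and at 248 and 380 CPM in fibroblast-like cells, 1.54-fold (1.49 to 1.58). Hsp90ab1, the constitutive form, was at 572 and 604 CPM in AT2-like cells, 1.05-fold (1.04 to 1.07), and was higher in the 3 fibroblast classes only, with 834 and 1282 CPM in the peribronchial class. Its ratio was above 0 in all 10 classes, and club-like cells, at 1.24-fold, lay just within the limit. The Hsp90 co-chaperones were mostly flat. Ahsa1, which speeds the Hsp90 ATPase, Cdc37, which loads kinases, and Chordc1 were past the limit in no class. Stip1, which links Hsp70 to Hsp90, was counted higher in transitional-like cells, at 1.296-fold (0.944 to 1.797), a direction it lost in thinned cells. Fkbp4, a prolyl isomerase of steroid receptor complexes, was counted higher in adventitial fibroblast-like cells and Ptges3, the co-chaperone p23, lower in mesothelial-like cells, with log2 ratios of 0.11 and −0.04 in thinned cells.

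The small heat shock genes went separate ways. Hspb1, which encodes Hsp27, was higher in 9 of 10 classes, with 77.2 and 172 CPM in AT2-like cells, 2.23-fold (2.15 to 2.32), 106 and 233 CPM in ciliated-like cells, 2.21-fold, and 850 and 1645 CPM in alveolar fibroblast-like cells, 1.94-fold (1.90 to 1.97). Transitional-like cells, at 346 and 403 CPM, were the exception. Hspb8, the partner of Bag3 in selective autophagy, was at 46.8 and 94.1 CPM in AT1-like cells, 2.01-fold (1.48 to 2.74), but at 85.8 and 63.1 CPM in transitional-like cells, 0.736-fold (0.594 to 0.913). Cryab, which encodes αB-crystallin, was higher in club-like and adventitial fibroblast-like cells and lower in transitional-like, AT1-like and ciliated-like cells. The ciliated-like direction was the opposite in thinned cells, and the transitional-like log2 ratio was −0.44 with all cells and −0.04 without the cell of most Cryab UMIs in each library. In AT1-like cells, where it is most abundant, it stood at 1020 and 811 CPM, 0.795-fold (0.731 to 0.863). In that class 19.6% of all genes were lower, and Sftpc was at 67600 and 109149 CPM. Whether the make-up of the class has a part in the Cryab value was not tested.

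In mitochondria, Hspe1 encodes the Hsp10 lid of the Hsp60 chamber and Hspd1 encodes Hsp60. Hspe1 was higher in 5 of 10 classes and above 0 in all, at 128 and 147 CPM in AT2-like cells, 1.15-fold (1.11 to 1.19). Hspd1, which shares its promoter, was at 65.8 and 65.9 CPM there, 1.00-fold (0.953 to 1.05), and was higher in adventitial fibroblast-like cells alone. Hspa9, the mitochondrial Hsp70, at 71.9 and 67.0 CPM in AT2-like cells, and Trap1, the mitochondrial Hsp90, were past the limit in no class.

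The TRiC subunits Tcp1, Cct2, Cct3, Cct4, Cct5, Cct7 and Cct8 were higher in no class. In AT2-like cells 1 of 7 and in fibroblast-like cells 2 of 7 had a log2 ratio above 0, with medians of −0.09 and −0.08. Cct5 was at 114 and 100.5 CPM in AT2-like cells, 0.883-fold (0.849 to 0.917), and was counted lower in transitional-like, peribronchial fibroblast-like and mesothelial-like cells, as was Cct7 in AT1-like cells. The mesothelial-like log2 ratio of Cct5 was 0.01 when each cell weighed equally. The heat shock factor genes were sparse. Hsf1 was at 10.03 and 9.88 CPM in AT2-like cells, 0.985-fold (0.867 to 1.12), with a log2 ratio of −0.01 from all UMIs and 0.31 in thinned cells, and was past the limit in none of 4 classes in which it was measured, and Hsf2 was past the limit in none of 3. HSF1 acts through its protein, which these data do not measure.

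The members with the greatest ratios were also followed within clusters. These genes were chosen by their ratios in the same cells, so clusters and mitochondrial bands describe the difference and give no separate support. In each of 7 AT2-like clusters with at least 100 cells per library, Hspa1a, Hspa1b, Dnajb1, Hspb1, Hsp90aa1, Hspa8, Dnaja1 and Hsph1 had log2 ratios above 0. Hspa1a ran there from 4.19 to 5.44, Hspb1 from 0.82 to 1.37 and Hspa8 from 0.10 to 0.29. The same 8 genes were above 0 in all 5 alveolar fibroblast-like clusters and in both ciliated-like clusters. Within AT2-like cells of like mitochondrial share Hspa1a was higher in each of 4 bands, for instance at 18.0 and 552 CPM in cells with 2.5 to 5% and at 8.88 and 567 CPM in those with 10 to 15% mitochondrial UMIs.

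Members were then compared between cells of the same class and library with and without an Hspa1a or Hspa1b UMI, at 2000 UMIs per cell. Of 35 measured members in navitoclax AT2-like cells, 3 were higher in cells with such a UMI and none lower, beside 5.62% of all genes higher and 3.49% lower. Hspb1 was at 218 CPM in cells with and 127 CPM in cells without, 1.72-fold (1.47 to 2.01), Dnajb1 at 1.49-fold (1.15 to 1.93) and Hspa4 at 1.38-fold (1.04 to 1.86). In navitoclax fibroblast-like cells 4 of 37 were higher, Dnajb1 at 1.7996-fold (1.53 to 2.12), Hspa4l, Dnajc7 and Hspb1 at 1.38-fold (1.31 to 1.46), and none was lower, beside 14% and 2.84% of all genes. The count of 4 of 37 is a smaller share than that of all genes. In the alveolar fibroblast-like class of the navitoclax library alone, 8 of 36 members were higher and none lower, beside 16.2% and 4.75% of all genes. In fibroblast-like cells with such a UMI the median depth before thinning was 8813 UMIs, against 7422 without, and the part of depth was not tested.

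Vehicle cells with such a UMI were few, 120 AT2-like and 443 fibroblast-like. In the latter, 3 of 37 members were higher, among them Hspb8 at 1.91-fold (1.42 to 2.53) and Dnajb1 at 1.79-fold (1.41 to 2.27), while Hspb1 was at 0.879-fold (0.803 to 0.960), and 3 were lower, beside 9.97% and 17.3% of all genes. In vehicle AT2-like cells Dnajb1 was at 0.826-fold (0.327 to 1.74), 14 of 36 members were higher and 4 were lower, beside 19.9% and 18.8%, and most of their intervals included 1. Ciliated-like cells gave 1 of 27 members higher, Hspb1 at 1.54-fold (1.12 to 2.11), and 8 lower in the navitoclax library, beside 5.63% and 14.1%.

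**Figure D4:**
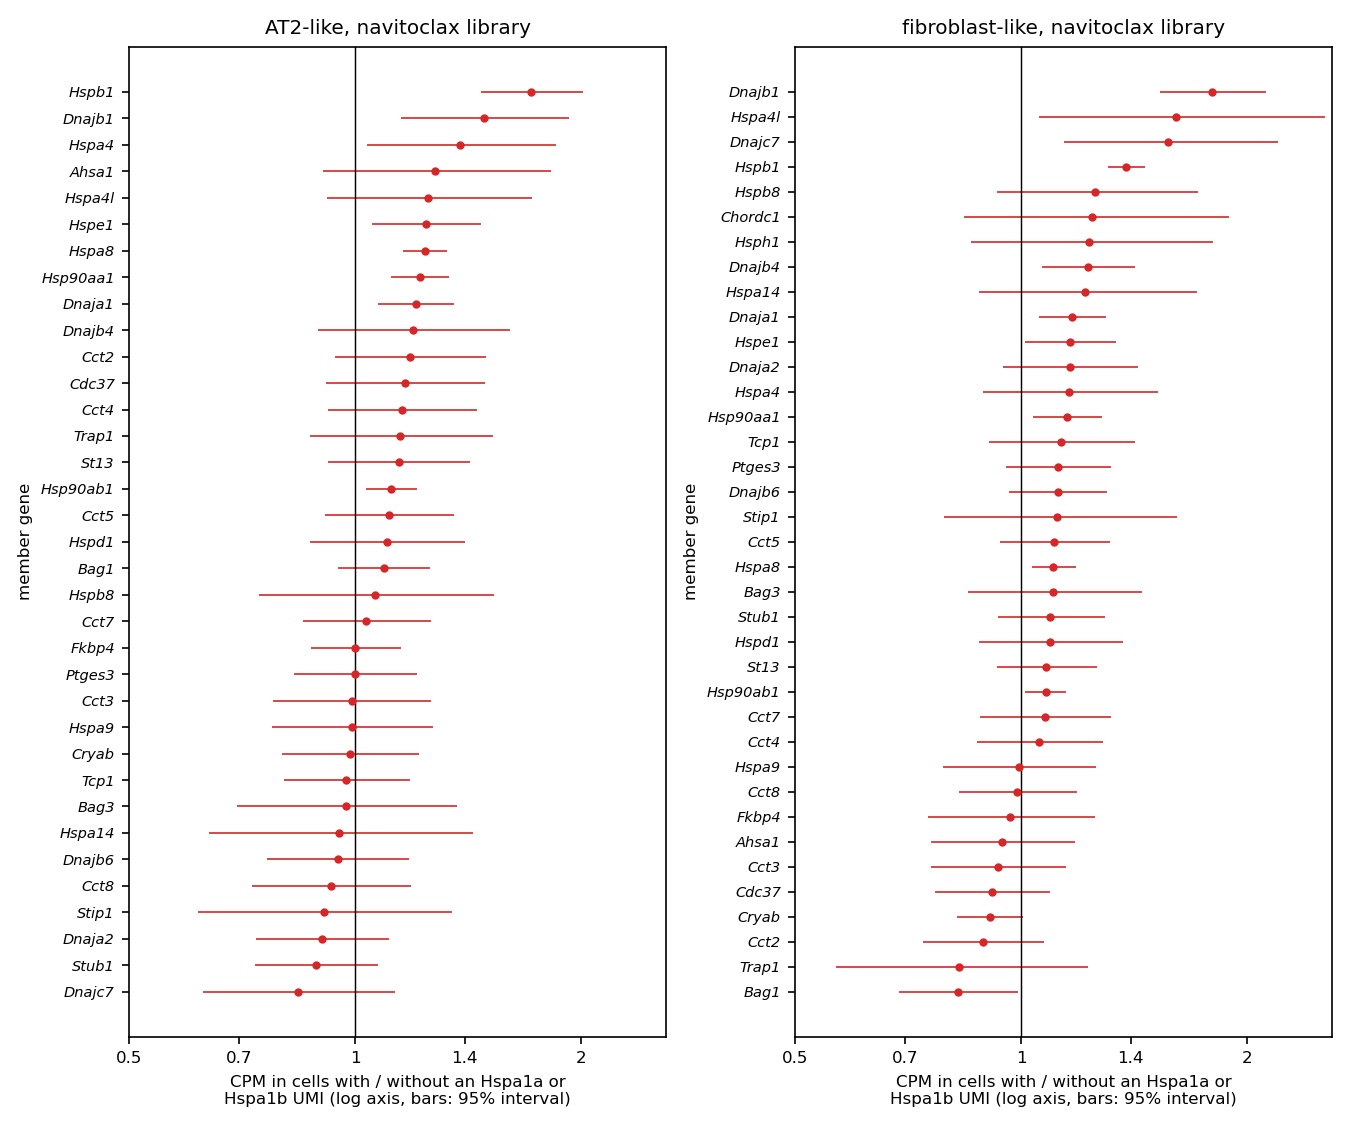
Ratio (log axis) of each measured member's CPM in navitoclax cells with an Hspa1a or Hspa1b UMI to that in cells without, at 2000 UMIs per cell, in AT2-like (left) and pooled fibroblast-like cells (right), with 95% intervals for counting error. Hspb1 (1.72) and Dnajb1 (1.49) are the highest in AT2-like cells and Dnajb1 (1.7996) is the highest in fibroblast-like cells, while most intervals include 1.

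Levels were also compared between classes of the same library. Ciliated-like cells had the highest level of 23 of 41 members in both libraries, beside 20.1% of all genes. Hspa4l, at 503 CPM in vehicle ciliated-like cells, was at 64.9 CPM in the next class, transitional-like. Hsph1 was at 137 CPM against 17.6 CPM in the next class, Hsp90aa1 at 2335 against 665 CPM and Ptges3 at 466 against 201 CPM, each with intervals that do not touch. Of the TRiC subunits, Cct7 was at 290 CPM in ciliated-like and 171 CPM in AT1-like cells. In the navitoclax library the level of Hspa4l was 591 CPM in ciliated-like and 62.5 CPM in transitional-like cells.

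Other members had their highest level elsewhere. Cryab was highest in AT1-like cells, at 1020 CPM in vehicle against 557 CPM in mesothelial-like cells, and lowest in ciliated-like cells at 20.9 CPM. Hspb1 was highest in mesothelial-like vehicle cells, at 1062 CPM, with 850 CPM in alveolar fibroblast-like cells, and lowest in AT2-like cells. In the navitoclax library the alveolar fibroblast-like class led with 1645 CPM. Dnajb4 was highest in alveolar fibroblast-like vehicle cells (198 CPM) and next in smooth muscle or pericyte-like cells (181 CPM), whose intervals overlap. Trap1 was highest in AT2-like cells, at 49.9 CPM. Club-like cells had the lowest vehicle level of 34 members, but also of 60.7% of all genes.

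**Figure D5:**
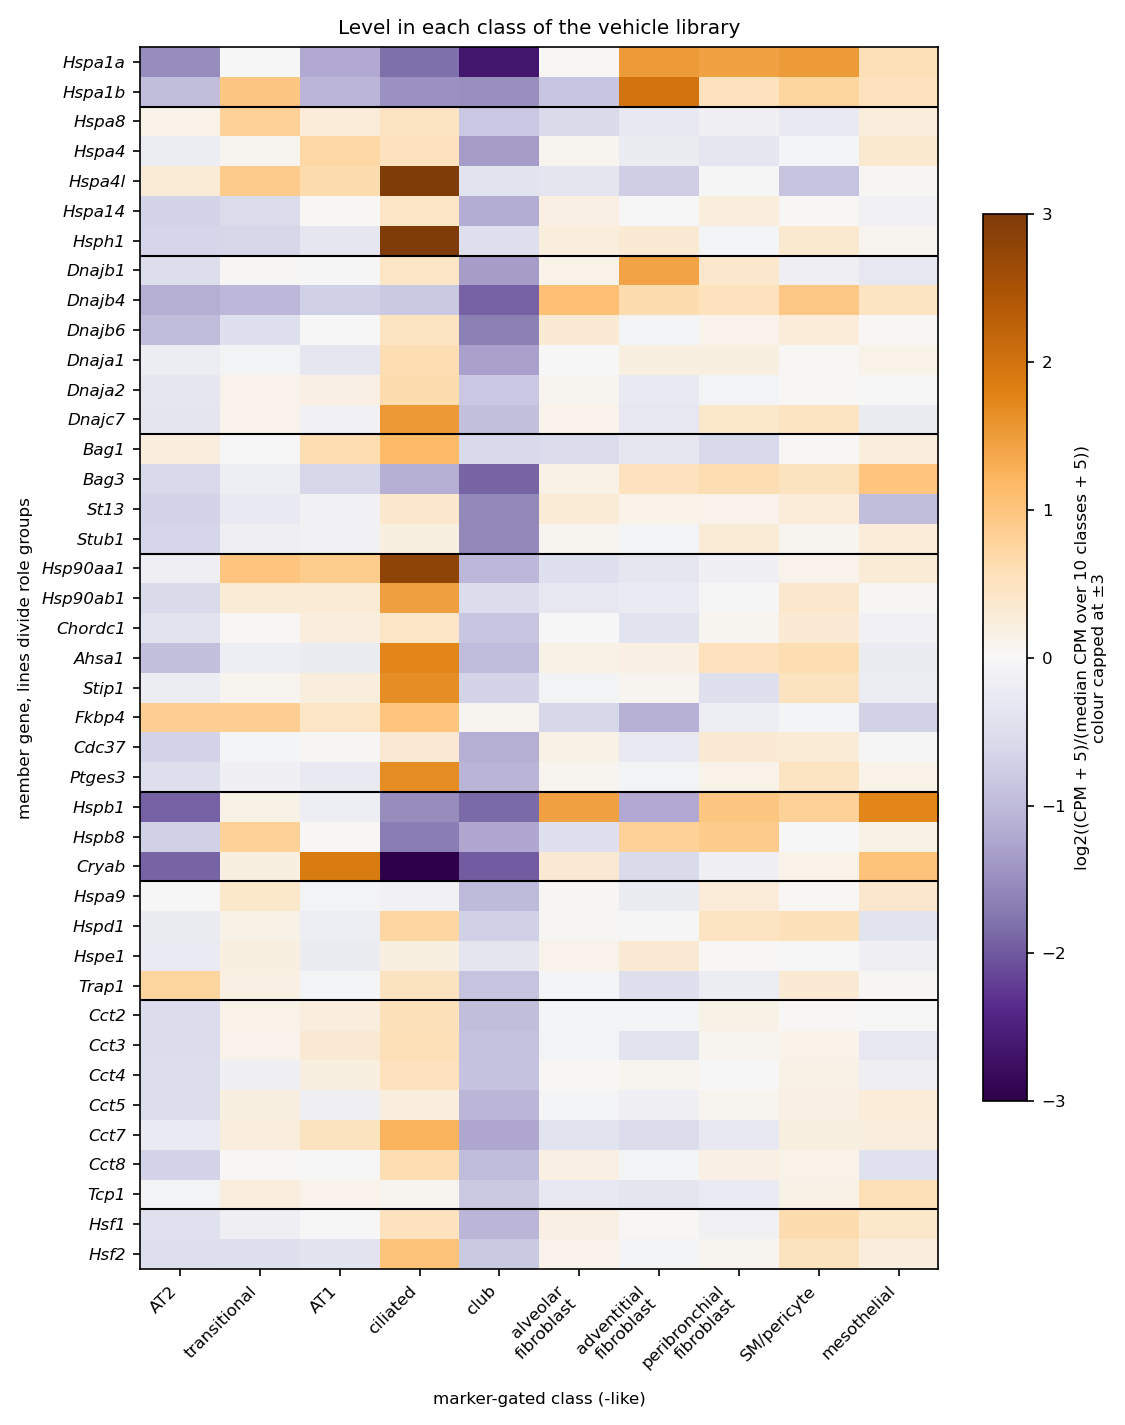
Level of 41 members (rows, in role groups) in 10 marker-gated classes (columns) of the vehicle library, as log2 of CPM + 5 over the median CPM of the 10 classes + 5, with colour capped at ±3. The ciliated-like column holds the highest level of 24 members in this library, led by Hspa4l, Hsph1 and Hsp90aa1, and Cryab runs from 20.9 CPM in ciliated-like to 1020 CPM in AT1-like cells.

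Chaperone genes outside the list were set beside it. Of 65 further genes, mostly cytosolic and mitochondrial chaperones and co-chaperones with a few of other compartments, 58 were measured in AT2-like cells, where the median was −0.01 and 0 were higher. The 4 highest were Serpinh1, the collagen chaperone of the endoplasmic reticulum (ER), at 1.251-fold (1.19 to 1.31), Hspa13, Dnajb5 and Ahsa2, and Clpx, Pfdn5 and Hsf4 were among the lowest. In fibroblast-like cells 1 of 62 was higher, Fkbp5, at 10.47 and 15.4 CPM, 1.47-fold (1.26 to 1.73), and none was lower. Serpinh1, Hspb7 and Pfdn4 came next, and Clpx, Dnajb2 and Hsf4 were among the lowest.

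Inducible Hsp70 genes are also known to respond to tissue digestion, as are immediate-early genes. Of 20 dissociation and immediate-early genes without chaperones, 19 were measured in AT2-like cells, of which 1 was higher and 4 were lower in the navitoclax library, with a median of −0.11. The greatest ratios were those of Zfp36 (235 and 142 CPM), Egr1 (86.3 and 136 CPM) and Dusp1 (497 and 337 CPM), so that both directions were seen. In fibroblast-like cells 2 of 20 were higher and 1 was lower (1.97% and 1.22% of all genes), with a median of −0.07. Ier2 (923 and 690 CPM), Myc (7.10 and 10.9 CPM) and Egr2 (10.1 and 13.9 CPM) had the greatest ratios there. Other classes had more values past the limit in both directions. Transitional-like cells had 2 of 19 higher and 7 lower (8.4% and 9.07%) and AT1-like cells 5 of 18 and 4 (6.95% and 19.6%). Club-like cells had 6 of 18 and 5 (21.4% and 2.33%), smooth muscle or pericyte-like cells 6 of 18 and 2 (14.6% and 12.2%). Mesothelial-like cells had 2 of 16 and 5 (11.3% and 12%). Whether handling of the 2 preparations has a part in the Hspa1a and Hspa1b values was not tested, and with 1 library per group preparation and treatment cannot be told apart.

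The 16 ER chaperones fold secreted proteins and answer to other stress sensors. In AT2-like cells 15 of them were above 0 and their median was 0.21, beside −0.01 over all measured genes. Of the 16, 2 were higher and none lower, beside 0.737% and 0.522% of all genes. Sdf2l1 (8.12 and 12.6 CPM), Calr (224 and 283 CPM) and Pdia3 (145 and 182 CPM) had the greatest ratios. In fibroblast-like cells the median was 0.16, 14 were above 0 and 1 was higher, Hspa5, the ER Hsp70, at 519 and 702 CPM, 1.35-fold (1.32 to 1.38). P4hb and Pdia3 followed. Other classes differed. Transitional-like cells had 1 of 15 higher and 6 lower (8.4% and 9.07% of all genes), and AT1-like cells 0 of 12 and 3 (6.95% and 19.6%). Club-like cells had 10 of 12 higher (21.4%) and peribronchial fibroblast-like cells 8 of 12 (10.1%), with 0 lower. Smooth muscle or pericyte-like cells had 6 of 9 and 1 (14.6% and 12.2%). In ciliated-like, alveolar and adventitial fibroblast-like and mesothelial-like cells 1 to 3 were higher and 0 lower.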

How the data were processed

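Single-cell libraries of the vehicle and the navitoclax group were analysed. The deposited values are raw UMI counts per gene and barcode, from Cell Ranger 4.0.0 (per the file headers), with genome build mm10 per the submitters' processing notes. Kept were barcodes of 500 or more genes whose mitochondrial share did not exceed 15%, and Scrublet (scanpy 1.11.5, expected rate 6%) removed 222 vehicle and 205 navitoclax doublets. Free RNA was not subtracted. Gate boundaries were set after the data were seen. Members, markers and gene lists were chosen with earlier results of these data known. UMIs of each class were added up within a library, and no test between treatments was possible. Folds carry conditional exact and levels exact Poisson 95% intervals, and shares Clopper-Pearson intervals. The code recovered known folds in simulated counts. All members could be named. Of other chaperones, the 4 highest and 4 lowest ratios in AT2-like and fibroblast-like cells were named, and of ER and dissociation genes the 3 greatest. One gene that this rule names is not reported here. Motif windows came from RefSeq (GRCm38.p6), transcripts and positions from GENCODE (GRCm38). Alternatives changed the pseudocount, scaling, UMI minimum, mitochondrial limit, doublets, class definition, thinning, cell weights and fold limit.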

Additional observations from a re-analysis of the deposited data

Results flagged for a closer look

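The small heat shock genes Hspb8 and Cryab had ratios of opposite direction in different classes, with counting intervals on either side of 1. Hspb8 was 2.01-fold (1.48 to 2.74) in AT1-like cells and 0.736-fold (0.594 to 0.913) in transitional-like cells, navitoclax over vehicle. Cryab was 1.82-fold (1.54 to 2.15) in club-like cells, at 65.1 and 119 CPM, and 0.693-fold (0.518 to 0.926) in ciliated-like cells, at 20.9 and 14.5 CPM. The ciliated-like log2 ratio was −0.41 as reported, but 0.16 in thinned cells and 0.13 with classes from clusters. The direction of Cryab in ciliated-like cells therefore depends on the setting. Cryab was also lower in transitional-like and AT1-like cells. In AT1-like cells, at 1020 and 811 CPM, its direction was the same under the other settings tried. The difference between classes was not tested.

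Barcodes with over 15% mitochondrial UMIs were left out of every comparison, and Hspa1a was higher in the navitoclax library there too. AT2-like barcodes of this kind had 12.4 CPM in vehicle (307 barcodes) and 864 CPM in navitoclax (550 barcodes), fibroblast-like ones 48.4 and 612 CPM (50 and 88 barcodes) and ciliated-like ones 9.85 and 189 CPM (75 and 69 barcodes). Such barcodes made up 13.8% of the vehicle and 18.1% of the navitoclax library.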

How the results depend on the processing

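The counts of members past the 25% limit ran under 12 other settings from 5 to 7 higher in AT2-like and from 8 to 11 higher in fibroblast-like cells, with 0 lower. The share of all genes counted higher moved more, from 0.198% (counted from 1.5-fold) to 3.12% (thinned cells) in AT2-like cells. In fibroblast-like cells it ran from 0.358% (counted from 1.5-fold) to 4.85% (pseudocount of 1 CPM). The medians of the members ran from −0.001 to 0.019 and from 0.081 to 0.13. The share of AT2-like cells with an Hspa1a UMI moves with depth by construction, from 3.11% and 47.5% at 2000 UMIs to 6.48% and 63.0% at 5000 UMIs, and to 16.7% and 76.9% without thinning. Of 3492 single values under other settings, pooled fibroblast-like cells included, 262 had the opposite direction for a reported value within the 25% limit and 11 for one past it; the cause was not tested. In thinned cells the 11 were the log2 ratios of Stip1 in transitional-like (−0.45), Stub1 in AT1-like (0.26), Cryab in ciliated-like (0.16) and Dnajb6 in smooth muscle or pericyte-like cells (0.31), and those of Hspa4 (−0.40), Hspb8 (−0.40) and Dnajb6 (−0.24) in club-like cells. When each cell weighed equally they were Stip1 in transitional-like (−0.025), Dnajb6 in smooth muscle or pericyte-like (0.040) and Cct5 in mesothelial-like cells (0.010), and with classes from clusters Cryab in ciliated-like cells (0.13). The restriction of the background to genes from 5 CPM was chosen after seeing the data. No paired analysis was possible because each group is 1 library. Depth limits small classes most, as in mesothelial-like cells, where 19 of 41 members were measured.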
